A study of Danio rerio with 10 samples.

Results

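The 2 libraries described here were made by TransTag from zebrafish that carry neural crest reporters, and they were set against the library of a wild-type fish. They are 2 of the 10 libraries of the series and were chosen by genotype. The first came from a compound line carrying mitfa:mCherry and crestin:EGFP, and the second from Tg(sox10:Kaede)zf393. The label of the compound line gives no allele numbers. All 3 fish were adults and the DNA came from tail fin, with about 100 ng entering each library. There was 1 library per genotype, so no difference between them has a replicate check and no test between libraries was made. The intervals are exact 95% binomial intervals. They cover counting error within a library only, since many reads can be PCR copies of 1 molecule.

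The neural crest is a migratory embryonic cell population that gives rise to pigment cells, peripheral neurons, glia and parts of the skull. The gene mitfa encodes the transcription factor that specifies melanocytes, crestin is a marker of premigratory and migrating neural crest in zebrafish, and sox10 encodes a transcription factor needed for the pigment and neural derivatives of the crest. Their regulatory elements are used to drive the fluorescent proteins mCherry and EGFP and the photoconvertible protein Kaede. Tol2 is a DNA transposon from medaka that is widely used to place such constructs in zebrafish chromosomes. TransTag cuts and tags genomic DNA with Tn5 transposase, amplifies fragments that hold a transgene end and sequences what lies beside it. The neighbouring stretch is termed the flank. The flank of a transgene reports where that transgene sits and not whether the reporter is active in the fin.

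The 4 flanks on which the comparison rests are printed below, each as its consensus over 80 bases with the first base taken to be the one next to the transgene end. Capitals mark the last base before a position at which 2% or more of the reads of that flank ended in the library named. The shared flank is the sequence that the wild-type fish gave, and the label of that fish names no transgene. It had reads in all 10 libraries, from 11.8% of placed reads in the H2A.Z-mCherry library to 99.6% in sox10:Kaede. Its source, and whether it marks an insertion, were not tested. The other 3 flanks had their highest read counts in a reporter library. They are called own flanks on that count alone. Such a count grows with depth, and placed reads ran from 238 in the wild type to 134232 in sox10:Kaede. The sox10:Kaede flank had a higher share in the wild type, at 0.840% from 2 reads, than in sox10:Kaede, at 0.305%. The wild-type interval, 0.102 to 3.0%, includes the sox10:Kaede share. By share of placed reads flank B was higher in the c787 (4.14%) and c403 (3.90%) libraries of the series than in the compound line (2.82%). The exact intervals of c787 (2.64 to 6.15%) and c403 (2.15 to 6.46%) both include the compound share. Per shared-flank read, flank B was higher in c787, c636 and c403 than in the compound line, and lower in c635. No genome was used here, so chromosome, position and gene are not given.
Shared flank, ends in the sox10:Kaede library: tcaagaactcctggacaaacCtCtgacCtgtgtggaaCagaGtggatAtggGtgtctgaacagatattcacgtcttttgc
Flank A, compound line: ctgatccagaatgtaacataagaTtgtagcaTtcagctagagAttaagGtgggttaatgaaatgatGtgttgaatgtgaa
Flank B, compound line: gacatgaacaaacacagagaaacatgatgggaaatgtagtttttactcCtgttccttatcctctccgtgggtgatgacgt
sox10:Kaede flank: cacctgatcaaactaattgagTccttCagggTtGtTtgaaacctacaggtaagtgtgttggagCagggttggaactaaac
These are 4 unrelated sequences. Each pair differed by 40 to 46 edits over the 80 bases, and no pair had more than 7 bases in a row in common. Their GC contents were 46.2% for the shared flank, 35.0% for flank A, 42.5% for flank B and 43.8% for the sox10:Kaede flank. Flank B held 2 CpG dinucleotides, the shared flank held 1, and the other 2 flanks held 0.

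Depth set the limits of the comparison. The wild-type library held 270 lines, with at most 1 flanking sequence each, of which 60 were distinct. The compound library held 16835 lines and 674 distinct ones, and the sox10:Kaede library held 149234 lines and 16715 distinct ones. Before adapter removal each distinct line therefore stood for 4.50, 25.0 and 8.93 lines in that order. Lines with residual adapter count in these ratios, and they were 1.48%, 0.820% and 6.81% of lines. Empty lines count too, at 1, 84 and 168 lines, and the empty line is 1 of the distinct lines of each library. After residual adapter was removed, 238, 15802 and 134232 lines of 20 bases or more were placed in families that share their first 20 bases within 4 edits. These are called reads below. A count of 0 allows a share of up to 1.26% of wild-type reads, 0.0190% of compound reads and 0.00223% of sox10:Kaede reads.

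The shared flank took most of each library. It had 234 of 238 wild-type reads, or 98.3% (95.8 to 99.5%). It had 14852 of 15802 compound reads, or 94.0% (93.6 to 94.4%), and 133660 of 134232 sox10:Kaede reads, or 99.6% (99.5 to 99.6%). The interval of the compound line lay below those of both other libraries, and those of the wild type and sox10:Kaede touched. The order of the compound line and the wild type depended on the total. Over all non-empty lines the compound line had 88.7% and the wild type 87.0%. By distinct first 60 bases they had 76.7% and 76.9%. By distinct lines it had 45 of 48 wild-type lines, or 93.8% (82.8 to 98.7%), 413 of 528 compound lines, or 78.2% (74.5 to 81.7%), and 9078 of 9283 sox10:Kaede lines, or 97.8% (97.5 to 98.1%).

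The compound line gave 2 flanks of which the wild type had no read. Flank A had 476 reads, or 3.01% (2.75 to 3.29%), and flank B had 446 reads, or 2.82% (2.57 to 3.09%). The wild type and sox10:Kaede libraries had 0 reads of either. The wild-type limit of 1.26% of reads lay below both shares. By distinct lines the wild-type limit was 6.25% and the exact upper bound 7.40%. Both lay below the interval of flank A, 12.7% (9.97 to 15.8%), and inside that of flank B, 7.77% (5.63 to 10.4%). Together the 2 flanks made up 922 reads, or 5.83% (5.47 to 6.21%), and 108 of 528 distinct lines, or 20.5% (17.1 to 24.2%). Flank A had 67 of these distinct lines and flank B 41, so A was 62.0% of the pair by distinct lines (52.2 to 71.2%) and 51.6% by reads (48.3 to 54.9%). The order by reads depended on the minimum length. With 8 bases in place of 20, flank A had 3.24% of compound reads and flank B 3.71%, so B was then ahead. The interval by distinct lines takes every line as separate, though distinct lines include copies with edits. Without an edit to the consensus, flank A had 22 distinct lines and flank B 19. Both flanks met the call used here, at least 10 reads and at least 1% of the library. Whether either flank lies beside one of the named reporters was not tested.

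The sox10:Kaede flank was rare in the deepest library. It had 409 reads, or 0.305% (0.276 to 0.336%), and 143 distinct lines, or 1.54% (1.30 to 1.81%). It met the 1% call by distinct lines and missed it by reads. With residual adapter left in, its share of distinct lines was 0.954%, which did not meet the call. The compound library had 0 reads of it, with a limit of 0.0190%. The wild-type library had 2 reads of it, or 0.84% (0.102 to 3.0%), an interval that includes the sox10:Kaede share. Both wild-type reads were the same line of 80 bases, without an edit, and that line was also the commonest sox10:Kaede flank line, with 104 reads in its own library. The wild-type library also held 1 read of the flank that led the H2A.Z-mCherry library of the series and 1 read of a family of fixed length. Each of these was without an edit too. The source of these 4 reads was not tested.

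**Figure D1:**
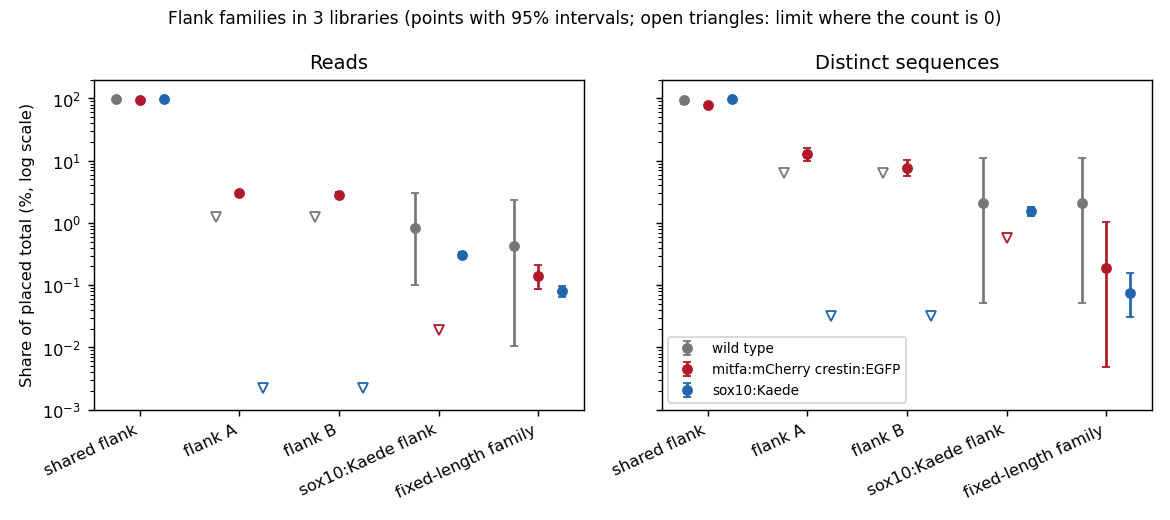
Share of placed reads (left) and of placed distinct sequences (right), in percent on a log axis, for 5 families in the wild-type, compound and sox10:Kaede libraries. Points carry exact 95% intervals and open triangles mark the limit where the count is 0: flanks A and B at 3.01% and 2.82% of compound reads lie above the wild-type limit of 1.26%, and the sox10:Kaede flank at 0.305% lies inside the wild-type interval.

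The fixed-length family was the remaining family seen in all 3 libraries. Its letters are those of the Tol2 end itself, recognised from background knowledge and not matched to a reference here, so it gives no position in the genome. The wild type held 1 such read, the compound line 22, or 0.139% (0.0873 to 0.211%), and sox10:Kaede 107, or 0.0797% (0.0653 to 0.0963%). All 22 compound reads and 106 of the 107 sox10:Kaede reads were 67 bases long. Of the compound reads left over, 3 belonged to the H2A.Z-mCherry flank and 3 to other families. In sox10:Kaede 56 reads were left over, spread over 26 families.

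The number of flanking lines and the number of distinct lines gave different pictures, so the distinct lines were compared with the consensus of their family over the first 80 bases. Up to base 80, lines of a family with 0 edits differ from each other only in where they end, and a few run past base 80. In sox10:Kaede 97095 of 133660 shared-flank reads had 0 edits, or 72.6%, but only 0.694% of the 9078 distinct lines did. In the compound line 95.0% of the shared-flank reads and 11.9% of the distinct lines had 0 edits. In the wild type the values were 88.9% and 51.1%. Of the distinct shared-flank lines in sox10:Kaede, 19.9% had 1 edit and 38.2% had 2. Most distinct lines of both reporter libraries were thus copies of the shared flank with 1 or more edits.

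The own flanks showed the same kind of difference. Flank B had 0 edits in 422 of 446 reads, or 94.6%, flank A in 377 of 476, or 79.2%, and the sox10:Kaede flank in 245 of 409, or 59.9%. Among distinct lines these shares were 46.3%, 32.8% and 14.0%. The sox10:Kaede library had the lowest share of reads without an edit in its own flank as well as in the shared flank. Partial adapter at line ends was left in for these counts and can count as edits. It was found in 34 of 219 sox10:Kaede flank reads of 80 bases and in 22 of 297 of flank A. The edit counts without it were not computed.

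**Figure D2:**
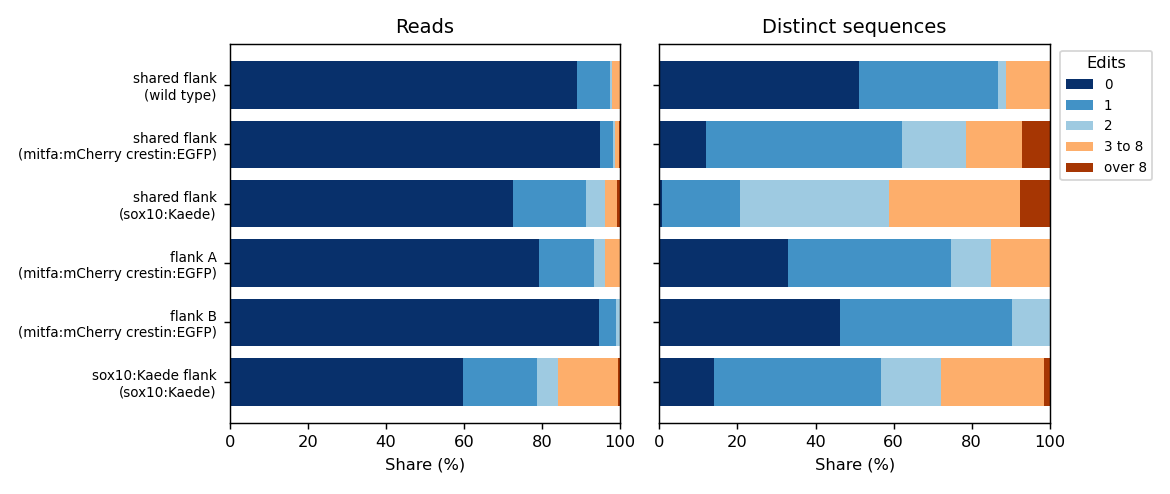
Share of reads (left) and of distinct sequences (right), in percent, by the number of edits to the family consensus, for the shared flank in 3 libraries and for the own flanks of the reporter lines. Bars run to 100%, and in sox10:Kaede the reads of the shared flank are 72.6% without an edit against 0.694% of its distinct sequences. Partial adapter at line ends was left in and can count as edits.

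Counting only different ends of lines with 0 edits removed copies that differ by edits. Between 20 and 80 bases a family can have at most 61 such ends, so abundant families come closer to that limit than rare ones. The compound library then had 46 ends of the shared flank, 20 of flank A and 19 of flank B, out of 87 over the named families. Flank A was 23.0% and flank B 21.8% of these ends. The sox10:Kaede library had 54 ends of the shared flank and 20 of its own flank out of 75, or 26.7% for its own flank. The wild type had 23 ends of the shared flank out of 26 and 1 end, the full 80 bases, of the sox10:Kaede flank. The own flanks had 19 to 20 such ends each, from similar numbers of reads (476 for flank A, 446 for flank B and 409 for the sox10:Kaede flank).

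Ends are taken to mark where Tn5 cut. The shared flank ended at the same few positions in all 3 libraries. The commonest end short of 80 bases was after base 21, followed by base 42. In the wild type 50 of 234 reads ended at base 21, or 21.4% (16.3 to 27.2%), and 31 at base 42, or 13.2% (9.2 to 18.3%). In sox10:Kaede base 21 had 20.3% (20.1 to 20.5%) and base 42 had 11.5% (11.3 to 11.7%). In the compound line base 21 had 42.3% (41.5 to 43.1%) and base 42 had 13.2% (12.7 to 13.8%).

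The wild-type and sox10:Kaede values overlapped at these positions, and the compound line stood apart at base 21. The shares of ends in a library are parts of the same total. The 6279 of 14852 compound reads that ended at base 21 therefore lower its other shares, and the differences below are not separate from that one. Shares without base 21 were not computed. The compound share of ends after base 28 was lower, at 2.78% (2.52 to 3.06%) against 7.69% (4.62 to 11.9%) in the wild type and 7.05% (6.91 to 7.19%) in sox10:Kaede. After base 38 the compound library had 2.54% (2.29 to 2.80%) against 8.55% (5.30 to 12.9%) and 8.48% (8.34 to 8.64%). The share of reads that ran to 80 bases was 25.6% (20.2 to 31.7%) for the wild type, 21.6% (20.9 to 22.2%) for the compound library and 30.0% (29.8 to 30.3%) in sox10:Kaede. The 5 commonest ends held 77.6%, 87.3% and 76.4% of the reads short of 80 bases.

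**Figure D3:**
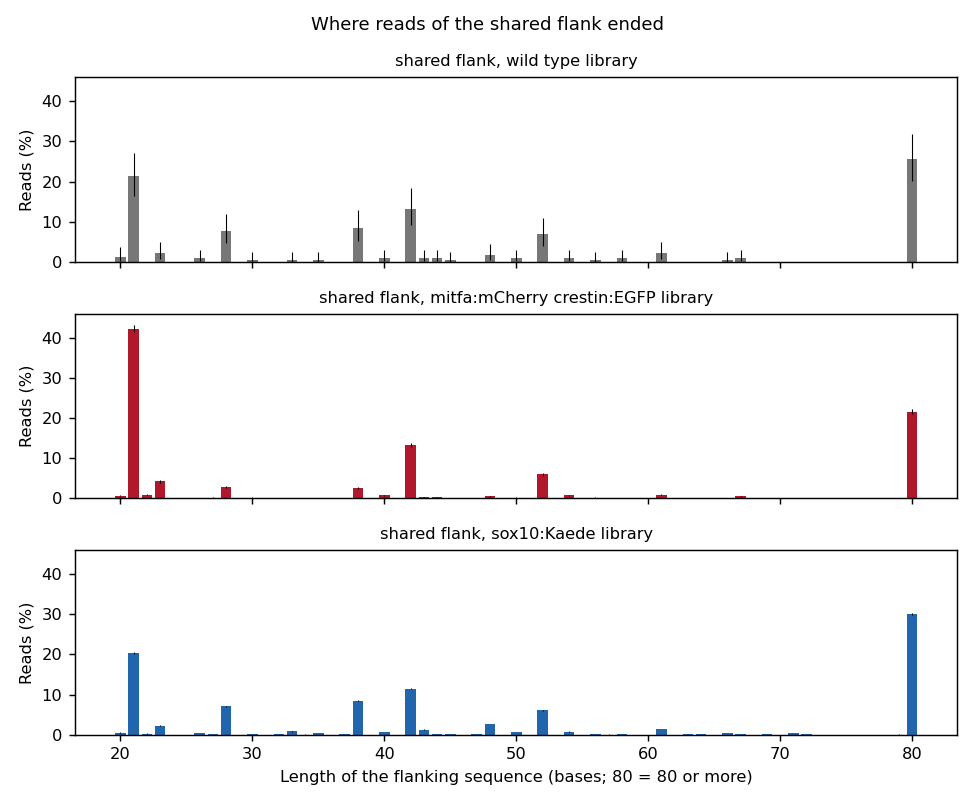
Percent of shared-flank reads that ended at each length from 20 to 80 bases in the wild-type, compound and sox10:Kaede libraries, with exact 95% intervals. The bar at base 21 is 21.4%, 42.3% and 20.3% of reads, and the bars at bases 28 and 38 are lower in the compound line than in both other libraries. All bars of a library share the same total, so a high bar lowers the others.

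The ends and lines of the wild type were mostly found again in the deeper libraries, which hold more lines of every kind. At 2 reads or more, the shared flank had 17 wild-type ends short of 80 bases, 45 compound ends and 55 sox10:Kaede ends. All 17 wild-type ends were among the ends of each reporter library, and all 45 compound ends were among the 55, which nearly fill the 60 positions available. Of the 48 placed distinct lines of the wild type, 37 (77.1%) were also compound lines, where they were 7.01% of 528. Of the same 48, 44 (91.7%) were also sox10:Kaede lines, where they were 0.474% of 9283. Lines of the shared flank with 1 or more edits recurred too, with 13 of 22 wild-type lines (59.1%) in the compound line and 19 (86.4%) in sox10:Kaede. They were 3.57% of the 364 such compound lines and 0.211% of the 9015 such sox10:Kaede lines. The wild-type lines and the reporter lines thus had copies with edits in common as well as exact ones, and whether these arose separately was not tested.

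The own flanks differed in how their ends were spread, though flanks A and B had the same commonest end short of 80 bases, after base 49. Flank B had 189 reads that ended after base 49, or 42.4% of 446 (37.7 to 47.1%). Another 189 ran to 80 bases, which left 68 reads for its other ends of 20 bases or more. Shorter lines are in none of the counts of ends given here. Lines of 8 to 19 bases matched flank B 164 times and flank A 57 times in the compound library. In sox10:Kaede they matched its own flank 73 times. Flank A ended after base 49 in 35 of 476 reads, or 7.35% (5.17 to 10.1%), after base 43 in 28 and after base 32 in 27, and 297 reads ran to 80 bases, or 62.4% (57.9 to 66.8%). The sox10:Kaede flank ended after base 34 in 46 of 409 reads, or 11.2% (8.35 to 14.7%), after base 64 in 29 and after base 27 in 17, and 219 reads ran to 80 bases, or 53.5% (48.6 to 58.5%). At 2 reads or more, flank A had 15 ends short of 80 bases, flank B 16 and the sox10:Kaede flank 19, and at 5 reads or more they had 11, 7 and 11. At 2 reads or more, flanks A and B had 6 ends in common, out of the 15 of A and the 16 of B, with 60 positions available to each. Whether 6 is more than such numbers of ends would share anyway was not tested.

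**Figure D4:**
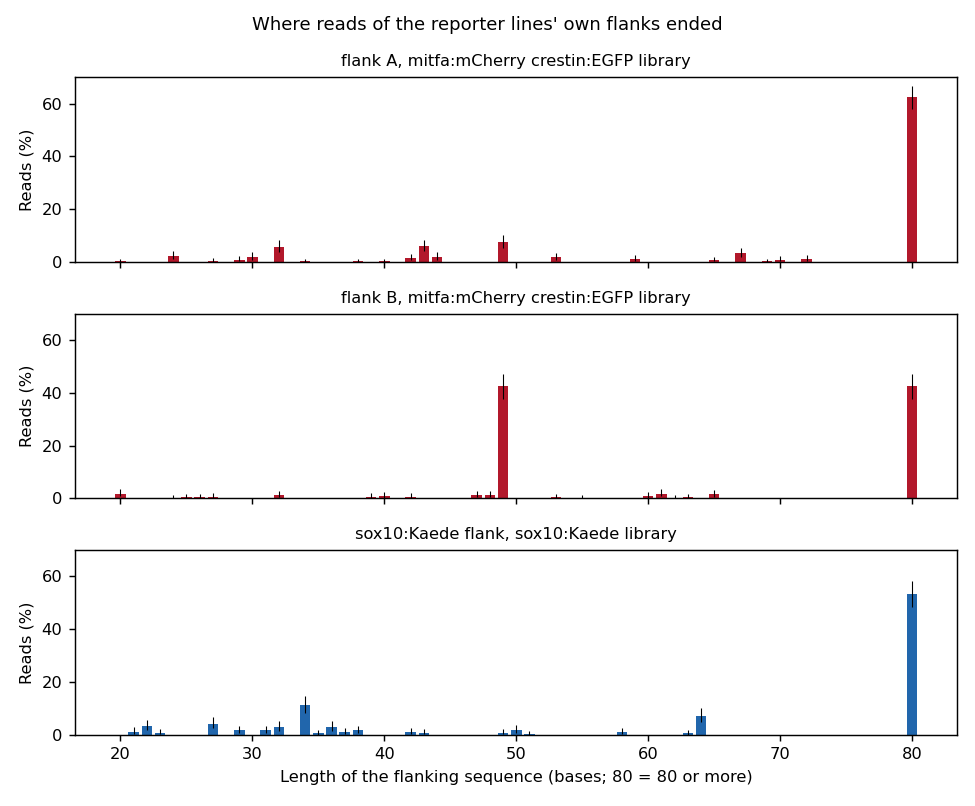
Percent of reads of flank A, flank B and the sox10:Kaede flank that ended at each length from 20 to 80 bases, with exact 95% intervals. Flank B ends at base 49 in 42.4% of its reads, and flank A and the sox10:Kaede flank run to 80 bases in 62.4% and 53.5% of theirs. Lines shorter than 20 bases are not counted.

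Some flanks of 80 bases ended inside the adapter, so their true end lay earlier. The last 4 or more bases matched the start of the adapter in 22 of 297 flank A reads of 80 bases (7.41%) and in 34 of 219 sox10:Kaede flank reads (15.5%). For the shared flank this was 65 of 3204 compound reads and 804 of 40135 sox10:Kaede reads. The commonest end uncovered in this way was after base 76 for flank A, with 13 reads, and after base 75 for the sox10:Kaede flank, with 25.

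Substitutions were then counted along each flank, in lines with at most 5 of them and no insertion or deletion. Per 1000 bases of the shared flank, 3.39 were mismatched in the wild type (2.39 to 4.67), 1.35 in the compound library (1.26 to 1.45) and 7.58 in sox10:Kaede (7.51 to 7.65). The 3 intervals did not overlap. The order depended on the counting: with each distinct line counted once the rates were 14.8, 24.2 and 39.4, so the wild type was then below the compound library. In sox10:Kaede 54.6% of the mismatches (54.2 to 55.1%) were T to G or A to C, against 35.1% in the wild type (20.2 to 52.5%) and 26.8% in the compound line (23.8 to 30.0%). The rate differed between positions of the shared flank, with 21 of 80 positions at 1% or more in sox10:Kaede, 13 in the wild type and 0 in the compound line. In the wild type a single read can reach 1%, as with 1 of 95 reads at position 46. The highest position in sox10:Kaede was 47, where T47G had 5.28% of 57794 sox10:Kaede reads (5.10 to 5.47%), 0.640% of 4531 compound reads (0.429 to 0.918%) and 2 of 95 wild-type reads. The next was 37, where A37C had 3.56% of 88006 sox10:Kaede reads (3.44 to 3.69%), 0.680% of 7055 compound reads (0.502 to 0.901%) and 3 of 152 wild-type reads. Positions count from 1 at the first base of the flank, with the base of the consensus first. The highest share of mismatched reads at any position of the shared flank was 5.3%, at position 47 in sox10:Kaede. In the wild type 60 reads covered position 79, with an upper bound of 11.5%, so a commoner second version is not excluded there. A version with more than 5 substitutions, or with an insertion or deletion, would not appear in this measure.

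**Figure D5:**
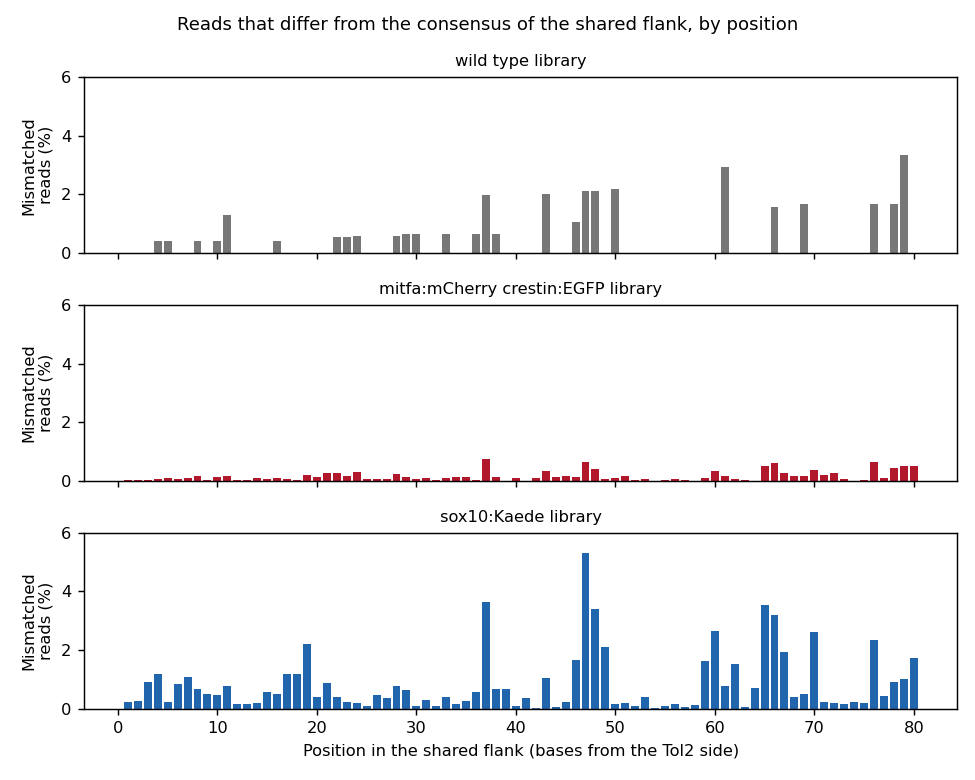
Percent of reads that differ from the consensus at each of the 80 positions of the shared flank, in the wild-type, compound and sox10:Kaede libraries on the same axis. The tallest bars are at positions 47 and 37 in sox10:Kaede, and in the compound library every position stays under 1%; the wild-type bars rest on 1 to 3 reads each.

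Flank A had a single substitution that stood out. A39C was present in 47 of 396 reads, or 11.9% (8.85 to 15.5%). Without the limit on substitutions and on insertions or deletions it was in 54 of the 420 flank A reads that cover the position, or 12.9% (9.81 to 16.4%), in 15 distinct lines, and the counts by length below are of these. The commonest line with it, with the changed base in capitals, had 30 reads against 216 for the line without it.
Flank A with A39C: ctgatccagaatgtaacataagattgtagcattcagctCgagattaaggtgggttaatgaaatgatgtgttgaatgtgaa
The substitution was seen at 6 of the 13 lengths that reach it. It was in 43 of the 297 reads of 80 bases, in 4 of the 16 reads that ended after base 67, and in 0 of the 35 that ended after base 49 and 0 of the 28 that ended after base 43. Within the limit, the next highest substitution of flank A, T38G, had 1.26% (0.410 to 2.91%). Flank B had no position with more than 1.06% of reads mismatched. Flank A as a whole had 2.94 mismatches per 1000 bases (2.36 to 3.62), flank B 1.02 (0.679 to 1.48) and the sox10:Kaede flank 14.6 (13.1 to 16.2). Of the 88 mismatches of flank A, 47 were A39C. In the sox10:Kaede flank the highest positions were 76 to 79, where reads that ended inside the adapter fall, and the rate was 9.72 once those adapter bases were removed.

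Set against the shared flank of the same library, flank A had 0.0320 reads per shared-flank read (0.0292 to 0.0351), flank B 0.0300 (0.0273 to 0.0330) and the sox10:Kaede flank 0.00306 (0.00277 to 0.00337). By distinct lines the ratios were 0.162 (0.123 to 0.210), 0.0993 (0.0702 to 0.137) and 0.0158 (0.0133 to 0.0186). In the wild type the sox10:Kaede flank had 0.00855 reads per shared-flank read, with an interval from 0.00103 to 0.0312 that includes the value of sox10:Kaede itself. Outside the comparison, flank B had more reads per shared-flank read in c787, c636 and c403 than in the compound line, and fewer in c635. The ratios compare the amplification of different sequences and are not copy numbers.

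Lines of 8 to 19 bases were too short for these families. Such a line was given to a family where it matched the start of that family only. Of all lines of this length, 20 of 20 in the wild type, 408 of 633 in the compound library and 9834 of 10011 in sox10:Kaede went to the shared flank, and 0, 4 and 93 matched no family. In the compound line 164 of them matched flank B and 57 flank A, and in sox10:Kaede 73 matched its own flank.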

How the data were processed

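The labels' protocols describe alkaline lysis and column cleaning of fin clip DNA. The files the authors deposited hold at most 1 sequence per line, with no header, score, count or coordinates, and repeated lines were kept and counted as reads. How lines were trimmed, and with which aligner and build, was not given in the sources used here. No line of the 3 libraries held the whole adapter without an edit. The adapter (19 bases) was derived from the lines as the run found after most different flank ends, and was removed with up to 3 edits (edlib 1.3.9.post1, Python 3.11.15). It was found in 4, 138 and 10164 lines of the wild-type, compound and sox10:Kaede libraries. Families were built over all 10 libraries from the commonest 20-mer down, which gave 40. The 11 with most reads over all libraries were given names. Recovery of known families and of the adapter was tested on simulated data with random flanks, uniform errors and random ends. No simulated family held most of a library, as the shared flank does here, and simulated adapter copies could be without an edit. The test therefore does not cover those features of these libraries. Intervals are exact (Clopper-Pearson, scipy 1.17.1). Of these 11, the text describes those called in 1 of the 3 libraries, those that were a library's own flank, and those with a wild-type read. The members, families and settings were chosen with earlier results of these data known. Genes were not named, as no genome was used.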

Additional observations from a re-analysis of the deposited data

Results flagged for a closer look

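Flank B of the compound line also appeared in 4 libraries outside the comparison, at shares above the wild-type limit of 1.26%. The exact upper bound for 0 wild-type reads was 1.54%, and the c635 share lay below it. It had 23 reads in c787, or 4.14% of placed reads (2.64 to 6.15%), and 14 in c403, or 3.90% (2.15 to 6.46%). It had 16 reads in c636, or 1.65% (0.945 to 2.66%), and 4 in c635, or 1.48% (0.404 to 3.74%), and both of these intervals reach below the limit. The shares in c787 and c403 are also above the 2.82% of the compound line, but both of their intervals include that value. Set against the shared flank of the same library, flank B had 23 reads to 200 in c787 and 16 to 173 in c636. It had 14 to 337 in c403 and 4 to 148 in c635, against 446 to 14852 in the compound line. Per shared-flank read it was thus higher in c787, c636 and c403 than in the compound line, and lower in c635. No intervals were computed for the ratios outside the compound line. Flank A had 0 reads in each of the 4 libraries. The source of these reads was not tested.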

How the results depend on the processing

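Of 144 values under 15 other settings, 92 stayed within the interval of the reported value (within 1.5 times for counts) and 52 did not. The causes were not tested unless stated. No paired analysis was possible because each genotype has 1 library. Shares of reads of the shared flank in the wild type, compound line and sox10:Kaede became 87.0%, 88.7% and 89.7% of all non-empty lines, a total that holds lines too short to be placed. On that total the compound line was above the wild type. By distinct lines the shares became 93.8%, 78.2% and 97.8%. A minimum of 30 bases, which drops ends at base 21, gave 88.8% and 99.4% in the compound line and sox10:Kaede. A minimum of 8 bases gave 92.9% in the compound line, and sox10:Kaede had 99.2% with 2 edits and 99.0% with adapter left in. Flank A became 12.7% by distinct lines and 5.61% with 30 bases, flank B 7.77%, 5.27% and, with 8 bases, 3.71%. With 8 bases flank A stayed within its interval at 3.24%, which was then below flank B. The sox10:Kaede flank became 1.54% by distinct lines, 0.392% with 30 bases and 0.274% of all lines. Shares of distinct lines of the shared flank over all lines were 80.4%, 72.2% and 94.7% in that order. With the first 60 bases they were 76.9% in the wild type and 95.8% in sox10:Kaede. The compound line stayed within its interval at 76.7%, which was then about level with the wild type. In sox10:Kaede 2 edits gave 93.2% and adapter left in 93.7%. The sox10:Kaede flank then had 2.29% of distinct lines with 60 bases and 0.954% with adapter, under the 1% call. A 5% minimum called 1 family in the compound line in place of 3, losing flanks A and B. In sox10:Kaede 2 were called by distinct lines and 4 with no share minimum, in place of 1, its own flank being among them. Ratios to the shared flank were 0.162, 0.0993 and 0.0158 by distinct lines and 0.0632, 0.0594 and 0.00394 with 30 bases for A, B and sox10:Kaede, and 0.0400 for B with 8 bases. With 5 reads per end the wild-type shared flank had 7 ends, flank B 7 and the sox10:Kaede flank 11. Mismatches per 1000 with each distinct line once were 14.8, 24.2 and 39.4 for the shared flank in that order, the wild type then being lowest, and 13.2, 12.0 and 28.6 for A, B and the sox10:Kaede flank. In lines of 80 bases they were 7.01 for the sox10:Kaede shared flank, 0.529 for B and 16.6 for the sox10:Kaede flank. Removing partial adapter at line ends, chosen after seeing the data, gave 7.43 and 9.72 for the 2 sox10:Kaede flanks. Depth limited the wild type most, with 238 placed reads.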
